A study of Mus musculus with 43 samples.

Results

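Polypoid tumors that grew in mice given no folic acid (FA) in the chow (0P, 0 mg FA/kg) were compared with the non-neoplastic colonic epithelium of mice given 8 mg FA/kg (8ND), site by site, to ask where high-folate epithelium already sits at the methylation level of a folate-free polyp and where it does not. The groups were taken from the sample labels: 6 libraries of 0P and 6 of 8ND, all of the second cohort, 12 of the 43 libraries of the series, each from 1 mouse and with no mouse in common. All of the mice were female Swiss Webster mice that received azoxymethane (AOM, a colon carcinogen) at 7 weeks of age and then 4 cycles of 2% dextran sulfate sodium (DSS, which injures the colon lining and causes colitis), spent 16 weeks on their diet and were killed at 27 weeks of age. Cells were laser-microdissected from fixed tissue. For non-dysplastic tissue the paper describes 2 kinds of dissection, epithelial cells alone and epithelium together with lamina propria. The labels say only non-neoplastic cells, so which kind a library holds is not known here. Epithelium is used below for all of them. The cohorts may differ in the tissue dissected, which was not tested. The remaining second-cohort libraries supply the mirror comparison: 7 of polyps on 8 mg FA (8P), taken from the same 6 mice as 8ND with 2 lesions of mouse 1856, and 6 of epithelium on 0 mg FA (0ND), taken from the same mice as 0P. Tissue and diet differ together between 0P and 8ND, so that these groups alone cannot separate them, whereas between 8P and 0ND the diets are exchanged. A library is a dissected mixture of cells, and a change in the methylation of each cell and a change in which cells were taken cannot be told apart.

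DNA methylation at CpG sites is copied at each cell division by maintenance methyltransferases, which draw methyl groups from S-adenosylmethionine, and folate is one of the carriers that feed methyl groups into that pool. CpG-dense promoters (CpG islands) are mostly unmethylated in normal colon, while isolated CpGs and repeats are mostly methylated. Colorectal neoplasms commonly lose methylation at the latter and gain it at some islands. DREAM, the assay used here, reads the CpG inside each CCCGGG: the first enzyme cuts it only when it is unmethylated, the next cuts the copies that are left, and the end of each read tells which enzyme made it. The deposited tables list 173449 such sites on build mm9 by position alone. An mm9 genome was not used here, so sites are named by their mm9 position and are not assigned to genes.

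A site was compared when at least 20 reads covered it in each of the 12 libraries, since few reads give an imprecise percentage, which left 8456 sites. The 0P libraries held 2887279 to 7032575 reads on sites and those of 8ND 1774213 to 6876845, and the median depth at the compared sites was 124 to 371 and 86 to 347 reads. Percentages adjusted by the authors with spiked standards are used unless raw ones are named. That adjustment multiplied the odds of methylation by 1 factor per library, which ran from 0.992 to 1.21 in 0P and from 1.06 to 1.97 in 8ND (medians 1.04 and 1.19), so that it raised 8ND more by the median. The 8ND library of mouse 1841 had the factor of 1.97. That of mouse 1856 covered 48630 sites with at least 20 reads, while the other 5 covered 15893 to 21585 and the 8P libraries 47798 to 54855. Its label puts the mouse number before the letter, as the polyp labels do, whereas the other 5 put it after. It was kept as labeled. The part of the 1841 and 1856 libraries in the results was not tested beyond the values without each library and on the raw scale. Values without each library were made for the calls, the mean over all sites, the matched shares and the shared signs, and for 8ND at the site lists. They were not made for the methylation classes.

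On the adjusted scale, polyps without folate had lower means than high-folate epithelium at sites that are methylated in epithelium on the basal diet. Sites were classed by their mean in the 7 first-cohort libraries of epithelium on the basal diet of 2 mg FA (2ND), which belong to neither group. At the 610 methylated sites (over 80% in 2ND) the library means of 0P ran from 80.3% to 89.1% and those of 8ND from 87.7% to 92.1%, with 5 of the 6 polyps below every epithelium. The group means were 84.9% ± 3.06 (SD, n = 6) and 90.2% ± 1.55 (SD, n = 6), a difference of -5.26 percentage points (two-sided exact permutation p = 0.00433, Benjamini-Hochberg adjusted over the 3 classes 0.0130). On the raw scale the difference was -3.63 points (exact permutation p = 0.0606), so the call at methylated sites rests on the adjustment. At the 1005 intermediate sites (20 to 80%) 0P had 42.7% ± 4.25 and 8ND 47.1% ± 3.36 (SD, n = 6 each), a difference of -4.38 points that did not pass (exact permutation p = 0.0844), and -0.785 points on the raw scale. At the 6766 unmethylated sites (under 20%) 0P had 1.19% ± 0.0873 and 8ND 1.07% ± 0.398 (SD, n = 6 each), which could not be told apart (exact permutation p = 0.528).

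Over all 8456 sites the mean was 12.3% ± 0.762 in 0P and 13.1% ± 0.638 in 8ND (SD, n = 6 each). The difference of -0.815 points did not pass (exact permutation p = 0.0823, the smallest possible being 0.00216). Without the 0P library of mouse 1808 it was -0.962 (exact permutation p = 0.0498), and without that of mouse 1839 it was -0.988 (exact permutation p = 0.0390). On the raw scale the difference was -0.155 points (exact permutation p = 0.777).

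**Figure D1:**
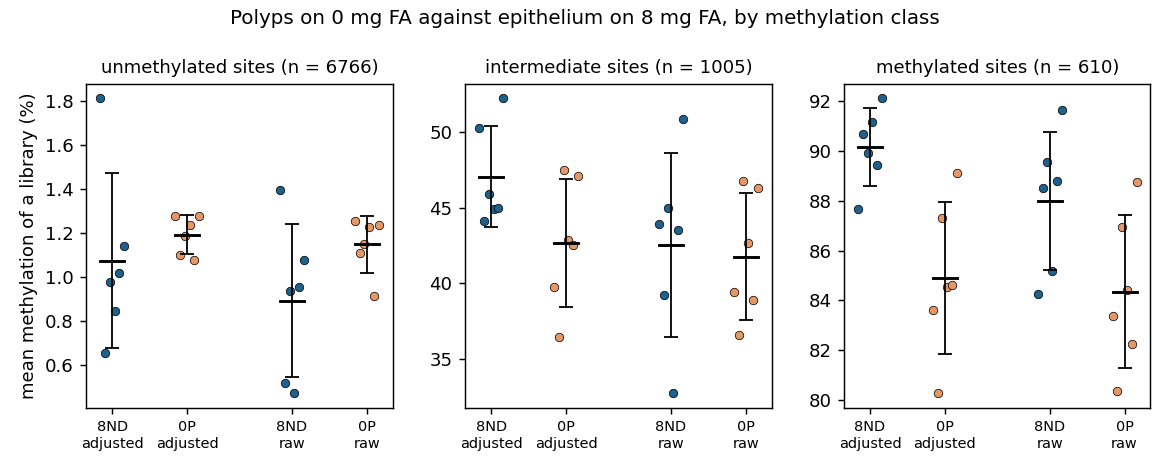
Mean methylation of each library (%, vertical axes that do not start at 0) over unmethylated, intermediate and methylated sites in 8ND (epithelium, 8 mg FA, dark blue) and 0P (polyp, 0 mg FA, orange), adjusted and raw. Each point is 1 library, the thick line the mean and the bar 1 SD. At methylated sites 5 of 6 adjusted 0P means lie below all 8ND means, and the raw values of 8ND spread more widely.

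A single site was then called different when its group means lay more than 5 points apart and the p of a two-sided equal-variance test, with no adjustment, was under 0.05. Of the 8456 sites 210 were called (2.48%), of which 177 were lower in 0P (2.09%) and 33 higher (0.39%). The falls had a median of -21.8 points and reached -55.4, and the rises had a median of 18.4 and reached 37.1. Lower sites thus made up 84.3% of the calls. On the raw scale 143 sites were called and 62.2% of them were lower. Without the 0P library of mouse 1805 the share was 71.2%, and without the 8ND library of mouse 1856 it was 78.4%. Both scales called 122 sites, all in the same direction (89 lower and 33 higher), so each rise called on the adjusted scale was also called on the raw one. No site passed Benjamini-Hochberg adjustment over the 8456 sites, by the equal-variance test or by limma, whose smallest adjusted p was 0.301. An unadjusted p under 0.05 was given to 231 sites by the former and to 247 by limma. Both counts are below the 1 in 20 of the 8456 sites that chance would give, although sites with equal values in all libraries cannot reach that threshold. The sites named below are therefore candidates.

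Called sites belonged mostly to the intermediate and methylated classes. Of 1005 intermediate sites 131 were called (13.0%), 110 of them lower, and of 610 methylated sites 49 were called (8.03%), 47 of them lower. Of 6766 unmethylated sites 28 were called (0.414%), 18 lower and 10 higher. In the basal-diet epithelium the called lower sites had a median methylation of 57.6% and the called higher sites of 32.6%, against 0.164% over all compared sites with a 2ND value.

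The share of sites called was lower where more CCCGGG sites lay close by. Among the 41 compared sites with no other listed site within 500 bases 5 were called (12.2%, 95% Wilson interval 5.32% to 25.5%), among the 3665 with 1 such neighbor 171 (4.67%, 4.03% to 5.40%), and among the 4750 with 2 or more 34 (0.716%, 0.513% to 0.999%). Dense sites were also the least methylated, with a median of 0.0657% in 2ND against 31.5% for the isolated ones. Most dense sites thus had little room to fall by more than 5 points. Density and basal level moved together, and their parts were not tested. By chromosome the share called was 3.79% on chromosome 4 (24 of 634 sites, 22 of them lower) and 5.56% on chromosome X (7 of 126).

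Groups did not overlap at 17 sites (0.201% of those compared). For 6 against 6 untied values chance alone separates the groups with a probability of 0.00216, which is near that share. Many compared sites had tied values near 0 and could not separate. Lack of overlap was therefore used only to choose which sites to describe. Of these, 15 were called on both scales, 14 lower in 0P and 1 higher, and the largest are described first. At chr4:132827052 the 0P libraries had 0% at the lowest, 14.8% in the middle and 38.3% at the highest, while the 8ND libraries ran from 52.6% through 70.3% to 100%. Every polyp was under every epithelium, as the choice of sites required. The means were 17.8% ± 14.3 and 73.3% ± 16.1 (SD, n = 6 each), a difference of -55.4 points (limma SE 8.68, adjusted p = 0.301) and of -50.9 on the raw scale, from as few as 22 reads in a library. In the second cohort epithelium on 0 mg FA stood at 73.6% and polyps on 8 mg FA at 25.6%. In the first cohort the epithelia were apart, with 78.4% ± 3.86 in 0ND (SD, n = 5, 74.2% to 83.2%) and 50.0% ± 6.81 in 8ND (SD, n = 6, 42.3% to 58.4%), the latter still above every 0P library.

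The same order was found at chr10:74699086, where 0P ran from 0% through 22.8% to 34.7% and 8ND from 44.9% through 54.4% to 76.6%. Its means were 20.8% ± 12.2 and 56.5% ± 11.0 (SD, n = 6 each), a difference of -35.8 points (limma SE 6.61, adjusted p = 0.456), read from at least 76 reads in every library. At chr9:109955078 the values were 0.98%, 24.6% and 52.0% in 0P (lowest, median and highest) and 53.3%, 69.4% and 72.3% in 8ND, a difference of -40.8 points (limma SE 7.98, adjusted p = 0.554). Here the highest polyp, of mouse 1808, nearly reached the lowest epithelium. At chr12:100468778 0P ran from 20.1% through 31.8% to 48.4% and 8ND from 54.3% through 72.1% to 95.4%, a difference of -41.1 points (limma SE 8.29, adjusted p = 0.554).

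A pair of neighboring sites on chromosome 3 behaved alike. At chr3:30356375 0P ran from 40.6% through 60.2% to 71.6% and 8ND from 77.4% through 91.2% to 96.7%, with a difference of -32.1 points (limma SE 5.51, adjusted p = 0.428) behind which lay at least 106 reads per library. At chr3:30356182, 193 bases away, the difference was -28.3 points (limma SE 6.85, adjusted p = 0.886), and the lowest epithelium (74.4%) and the highest polyp (74.3%) almost met. Epithelium on 0 mg FA was at 94.6% ± 1.82 and 92.7% ± 2.59 (SD, n = 6) at these sites, slightly above 8ND, and 8P was at 69.3% and 70.5%, between 0P and both epithelia.

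The other sites that the rule named had differences of -31.5 to -34.3 points and were less even. At chr19:7950508 8ND ran from 88.2% to 100% and 5 polyps from 52.5% to 85.2%, while the polyp of mouse 1805 had 3.44% and pulled the mean down to 59.9%. At chr4:153915110 the 0P values of 0% to 43.6% ended just under the 8ND values of 43.9% to 79.95%. At chr11:69860650 the groups ran from 21.8% to 54.1% and from 57.6% to 93.9%. The polyp of mouse 1805 was the lowest of the 6 at 6 of the 9 named lower sites and read 0% at 3 of them. In its library 77.4% of reads fell on spiked standards, against 32.6% to 66.5% in the other 0P libraries. It also had the fewest site reads (2887279) and the lowest median depth (124) of 0P. Whether this bears on its values was not tested. Only chr2:167208486 was higher in 0P under this rule, with 72.4% to 93.9% in 0P against 32.3% to 70.6% in 8ND and means of 79.3% ± 7.66 and 47.9% ± 15.8 (SD, n = 6 each), a difference of 31.4 points (limma SE 7.09, adjusted p = 0.837).

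**Figure D2:**
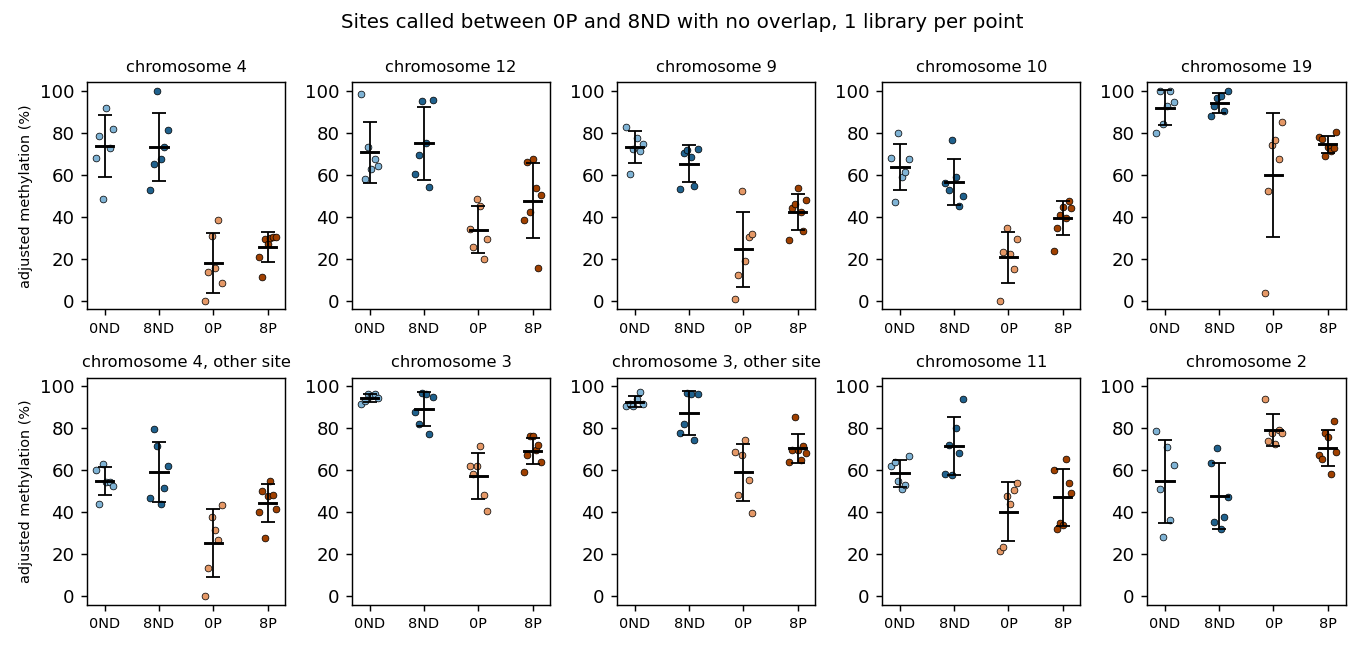
Adjusted methylation (%) of each library at the 9 sites named as lower and the 1 named as higher in 0P, each panel 1 site titled by its chromosome. Points are libraries of 0ND (epithelium, 0 mg FA), 8ND (epithelium, 8 mg FA), 0P (polyp, 0 mg FA) and 8P (polyp, 8 mg FA), with the mean and 1 SD. The values of 0P and 8ND do not overlap in any panel because the sites were chosen so, and 8P lies on the same side of both epithelia as 0P by its mean.

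Neighboring sites tended to be called together. Of the 202 compared neighbors within 500 bases of a called site 44 were called (21.8%), against 1.87% of all such neighbors, and 79.2% had a difference of the same sign, against 53.2%. Neighboring sites can be the 2 ends of 1 fragment, so that they are not independent. The shares over all neighbors also mix the methylation classes. Of the 8456 compared sites 6766 were unmethylated, with 0.414% called, against 13.0% of intermediate and 8.03% of methylated sites. Neighbors of like class were not compared, so the part of class in the higher shares was not tested. When runs of compared sites with gaps of at most 500 bases were formed, 188 of 4159 runs held a called site, and 21 held 2 calls in the same direction, 20 of them lower in 0P. The largest lay at chr4:132826788-132827052, around the first site above, where the mean of both sites was 40.7% ± 13.9 in 0P and 79.7% ± 13.2 in 8ND (SD, n = 6 each). It was followed by chr4:139078086-139078272 (13.4% in 0P and 45.1% in 8ND), chr4:148296183-148296376 (32.8% and 63.5%), the chromosome 3 pair and chr4:117032753-117032988 (23.9% and 52.9%). At chr4:139078086-139078272 neither site was called on the raw scale, and 8ND spread from 21.1% to 100%. The single region higher in 0P, chr12:81071270-81071384, had 30.0% ± 13.8 in 0P and 8.86% ± 9.63 in 8ND (SD, n = 6 each), with both sites called on both scales.

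Sites chosen with 8P and 0ND, without any 0P or 8ND library, were then used to place high-folate epithelium relative to the polyp. The choice was not independent of the mice, since 8P came from the mice of 8ND and 0ND from those of 0P. Values shared by the tissues of a mouse can therefore carry over into 8ND and 0P. Of the 8232 sites compared in both pairs, 723 were called between 8P and 0ND (8.78%), 578 lower and 145 higher in 8P. Over the same 8232 sites 207 were called between 0P and 8ND (2.51%). At the 578 lower sites the library means of 0ND ran from 72.4% through 74.1% to 75.7%, of 8ND from 63.7% through 66.9% to 73.0%, of 0P from 49.5% through 55.8% to 64.2%, and of 8P from 51.0% through 55.7% to 60.5%. The ranges of the polyps of both diets overlapped, and 8ND lay between them and 0ND, overlapping the top of 0P and the bottom of 0ND. The means were 74.2% ± 1.42 (SD, n = 6) in 0ND, 67.2% ± 3.36 (SD, n = 6) in 8ND, 56.3% ± 5.43 (SD, n = 6) in 0P and 56.4% ± 3.14 (SD, n = 7) in 8P. On the raw scale they were 72.4%, 63.4%, 55.5% and 52.1%, with 8ND from 58.1% to 72.0% and 0P from 49.6% to 63.6%. By its mean 8ND was thus nearer to 0ND on the adjusted scale and nearer to 0P on the raw one. Which side it was nearer to rests on the adjustment. The values of 8P and 0ND chose these sites, which widens the gap between those groups, and no test was made over the list. In the first cohort, whose libraries took no part in the choice but come partly from the same mice, the 492 of these sites that were covered there had 72.6% ± 1.90 in 0ND (SD, n = 5) and 66.0% ± 3.78 in 8ND (SD, n = 6).

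**Figure D3:**
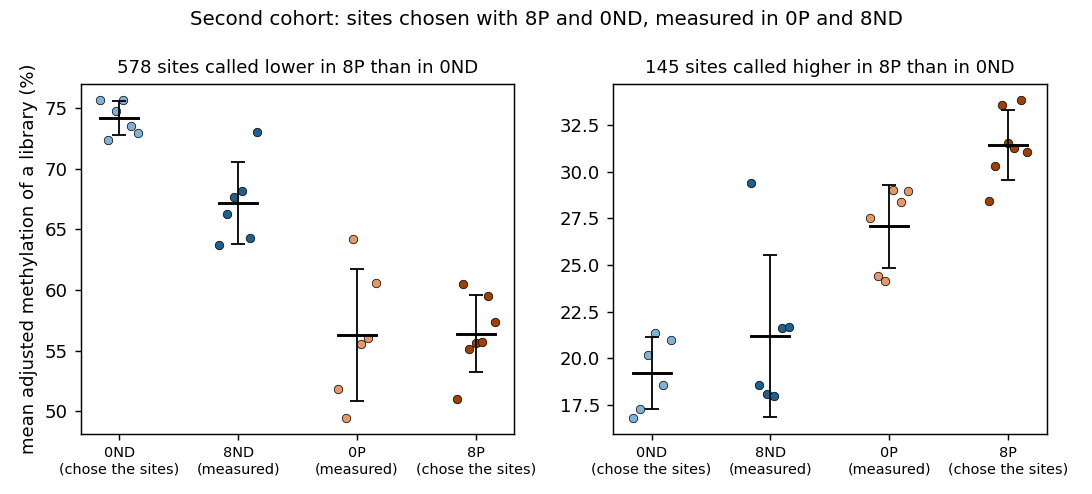
Mean adjusted methylation of each library (%, vertical axes that do not start at 0) over the 578 sites called lower (left) and the 145 called higher (right) in 8P than in 0ND. Each point is 1 library of 0ND and 8ND (epithelium) or 0P and 8P (polyps), with the mean and 1 SD. On the left 8ND lies between 0ND and the polyps, and on the right 5 of 6 libraries of 8ND lie with 0ND and that of mouse 1856 at 29.4%.

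Site by site, 0P was below 8ND at 497 of the 578 lower sites (86.0%), against 30.0% of all 8232 sites, of which many have equal means near 0. The median of 0P minus 8ND was -10.3 points there, beside -16.3 for 8P minus 0ND, and 0 over all 8232 sites. On the raw scale 0P was below 8ND at 470 sites (81.3%) with a median of -7.69. Tests called 115 of the 578 sites between 0P and 8ND (19.9%), 114 of them lower and 1 higher. On the adjusted scale the mean of 8ND was closer to that of 0P than to that of 0ND at 204 of the 578 sites (35.3%). It was more than 5 points below that of 0ND at 303. At 136 sites the means of 0P and 8ND were within 5 points of each other, 77 of which also had 8ND more than 5 points below 0ND. Since 0ND was used in the choice, counts that involve it are descriptions only.

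The sites called higher in 8P gave another order, with most of 8ND beside 0ND. At the 145 sites called higher in 8P the library means ran from 16.8% through 19.4% to 21.3% in 0ND, from 18.0% through 20.1% to 29.4% in 8ND, from 24.1% through 27.9% to 29.0% in 0P and from 28.4% through 31.3% to 33.9% in 8P. The 29.4% was the library of mouse 1856, which lay inside the range of 8P. The other 5 of 8ND averaged 19.6%, near the 19.2% of 0ND. At the 578 lower sites the library of mouse 1856 had 63.7%, above the range of 8P. The mean of 0P was above that of 8ND at 106 of the 145 sites (73.1%), with a median of 3.88 points, and 12 were called, 11 of them higher in 0P (percent called 8.28). In the first cohort the 140 covered sites had 22.6% ± 3.03 in 0ND (SD, n = 5) and 22.6% ± 3.39 in 8ND (SD, n = 6).

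Matching was asked for with an interval, since a p that misses the threshold does not show that groups are alike. A site was taken as matched when the whole 95% limma interval of 0P minus 8ND lay within 5 points of 0. Of the 8456 sites 5784 matched (68.4%), 210 were called and 2462 were undecided (29.1%). Nearly all of the matched sites, 5701, were unmethylated ones, and 36 of 610 methylated sites (5.90%) and 0 of 1005 intermediate sites matched. The median half-width of the interval was 21.8 points at intermediate and 13.3 points at methylated sites, so a match within 5 points was hardly detectable there with 6 libraries a group. At the 723 sites called between 8P and 0ND, 127 were called between 0P and 8ND (17.6%), 590 were undecided and 6 matched (0.830%). That count fell to 1 without the 8P library of mouse 1841, and to 2 without the 0ND library of mouse 1808 or that of mouse 1820. With a margin of 10 points 34 matched.

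**Figure D4:**
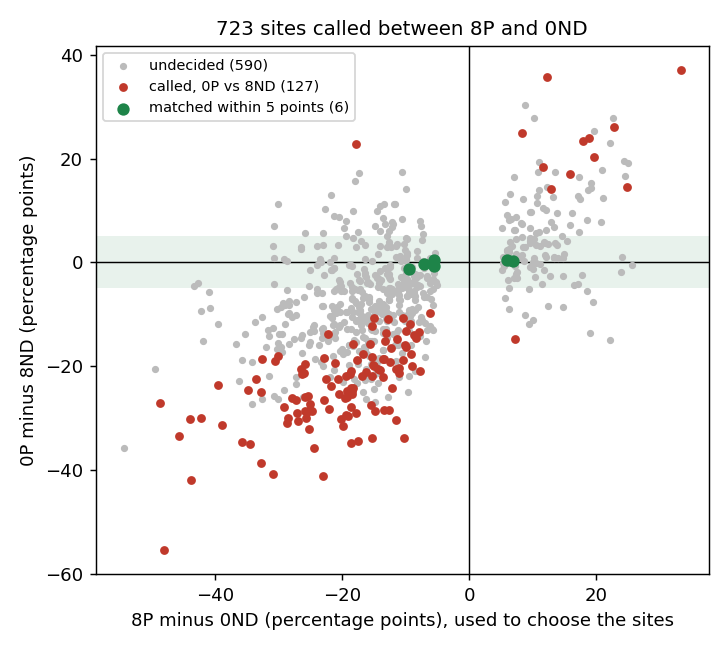
Difference 0P minus 8ND against 8P minus 0ND (percentage points) at the 723 sites called between 8P and 0ND, 1 point per site. Red sites were also called between 0P and 8ND (127), green ones matched within 5 points (6) and grey ones are undecided (590), and the band marks 5 points around 0. Most sites that are lower in 8P lie below 0 on the vertical axis too, and the 6 matched sites are among the smaller differences between 8P and 0ND.

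The matched sites named here were those with the largest difference between 8P and 0ND among the 156 of these sites where 8P and 0ND did not overlap. Of the 156 sites 1 was inside 5 points, 7 were inside 10 points, and 41 were called between 0P and 8ND. The one inside 5 points was chr5:134768809, with 91.3%, 98.1% and 100% in 0P (lowest, median and highest) and 95.2%, 99.5% and 100% in 8ND. Its means were 97.1% ± 3.55 and 98.4% ± 2.18 (SD, n = 6 each), with an interval of the difference from -4.98 to 2.48 points. Polyps on 8 mg FA had 82.8% to 94.7% there and epithelium on 0 mg FA 98.9% to 100%, so at this site the folate-free polyps stayed with both epithelia and 8P was lower.

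The sites that matched only within 10 points had the same arrangement. At chr15:25441411, chr4:139038390, chr9:69333063 and chr7:133435948 the means were 92.4% to 96.5% in 0P and 93.1% to 98.6% in 8ND, with 85.4% to 89.2% in 8P and 95.1% to 100% in 0ND. At chr8:9770582, an almost unmethylated site, 0P had 0% to 7.47%, 8ND 0% to 14.5% and 0ND 0% to 2.35%, while 8P had 3.62% to 19.5%. At these 5 sites and chr5:134768809 the mean of 8ND was 1.35 to 3.78 points from that of 0ND, and at the 6 sites of the list of 723 that matched within 5 points it was 0.20 to 2.07 points from it.

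Sites where 1 group stood apart from the others were listed after the values had been seen. All 6 values of 0ND were above all 12 values of 8ND and 0P at 2 of the 8232 sites, both on chromosome 7, and below them at none. At chr7:105335197 0ND ran from 55.6% through 68.1% to 80.9%, 8ND from 12.1% through 24.8% to 37.2% and 0P from 7.11% through 16.0% to 50.3%, the last being the polyp of mouse 1808. The means were 66.8% ± 9.36, 24.9% ± 9.69 and 19.3% ± 15.9 (SD, n = 6 each), and 8P had 25.9% ± 8.73 (SD, n = 7). By its mean 8ND was nearer to both polyp groups than to 0ND, but the choice of the site had already put 8ND and 0P below 0ND. The interval of 0P minus 8ND, from -22.3 to 11.0 points, was too wide for a match within 5 points. The polyp of mouse 1808 raised the mean of 0P, the next highest polyp being at 18.4%. In the first cohort, which did not choose the site, 0ND had 57.6% ± 9.10 (n = 5, 43.9% to 67.6%) and 8ND 31.6% ± 11.5 (n = 6, 13.0% to 41.6%). That difference of -26.0 points again had no overlap (two-sided exact permutation p = 0.00216, the smallest that 462 assignments can give, and 0.00433 adjusted over the 2 sites), but 8 of these mice also have libraries in the second cohort.

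At chr7:52508632 0ND ran from 51.6% to 66.8%, 8ND from 24.1% to 47.3%, 0P from 5.46% to 51.4% and 8P from 10.3% to 37.1%. The means were 59.7%, 37.9%, 26.1% and 20.1%, so that 8ND lay between folate-free epithelium and the polyps. In the first cohort 0ND had 54.6% ± 7.87 (n = 5) and 8ND 49.3% ± 11.7 (n = 6), a difference of -5.29 points that did not pass (exact permutation p = 0.403).

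**Figure D5:**
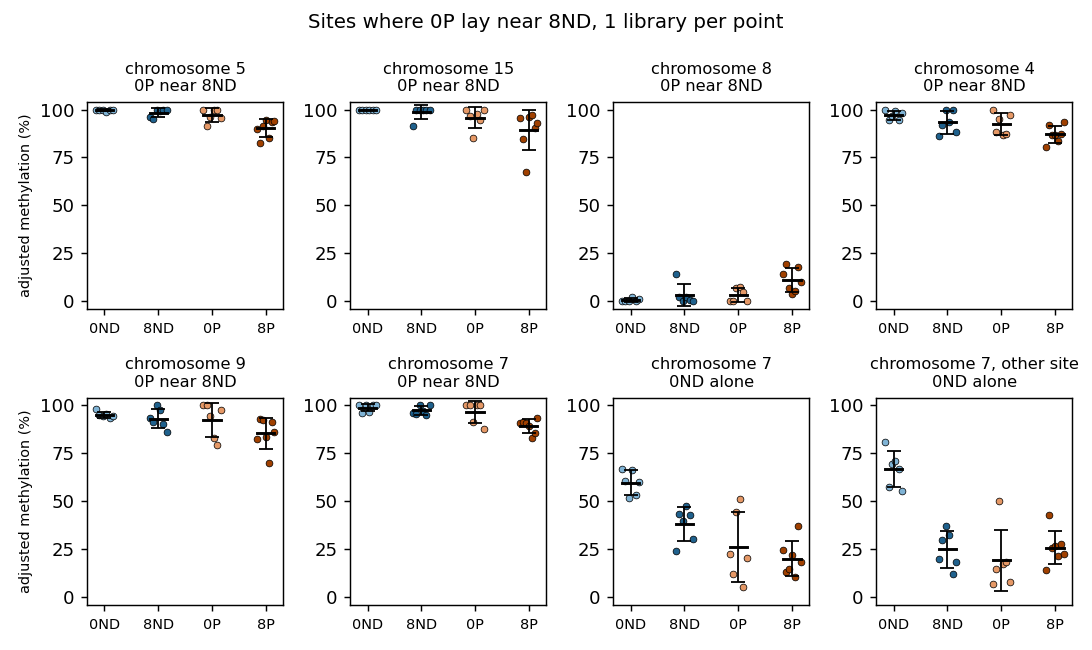
Adjusted methylation (%) of each library in 0ND, 8ND (epithelium, 0 and 8 mg FA), 0P and 8P (polyps, 0 and 8 mg FA) at the 6 named sites where 0P lay near 8ND and at the 2 chromosome 7 sites where 0ND stood alone. Points are libraries, with the mean and 1 SD. In the first 6 panels 8P is the group that is displaced, and in the last 2 the 6 values of 0ND lie above all the others.

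In the opposite arrangement, all 6 values of 0P were below all 12 values of 8ND and 0ND at 10 sites, and above them at none. Of the sites named above 7 are among them. The others were chr5:130470989 (53.0% ± 6.38 in 0P, 77.6% ± 12.5 in 8ND and 86.4% ± 6.03 in 0ND, SD, n = 6 each), chr4:99279942 (1.48% ± 2.37, 15.4% ± 5.82 and 14.5% ± 6.25) and chr1:91351750, where 0P read 0% in all 6 libraries and the epithelia had means of 1.15% and 1.04%. This last site lies near 0 and was not called, its difference being under 5 points. Its 8ND median was 0.36%, and the library of mouse 1856 (4.21%) raised the mean. First-cohort epithelium, partly of the same mice, did not always keep this order. All first-cohort 8ND values were above all 0P values at 6 of the 10 sites and overlapped them at the other 4, one of which was chr9:109955078 with 42.8% ± 19.1 in 8ND (SD, n = 6, 14.5% to 65.8%, from as few as 11 reads). First-cohort 0ND was entirely above 0P at 8 of the 10, and first-cohort 8ND was entirely below first-cohort 0ND at 2. In 8ND there was no site with all 6 values apart from those of 0P and 0ND together. All values of both polyp groups were below those of both epithelia at 2 sites, chr4:132827052 and chr3:30356375, and above them at none.

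Finally, the calls between 0P and 8ND were read in the mirror pair, whose libraries had no part in them. Of the 207 called sites compared in both pairs, 187 (90.3%, 95% Wilson interval 85.5% to 93.7%) had the same sign in 8P minus 0ND: 161 of the 175 lower (92.0%) and 26 of the 32 higher (81.3%). Among all sites whose mean was lower in 0P, called or not, 51.5% of 2470 had the same sign, and among those higher 61.9% of 2415. In these shares a mirror difference of 0 counts as not the same. The called sites had a median basal level of 53.8%, against 0.164% over the compared sites, and sites of like level were not compared. In both pairs 125 sites were called in the same direction and 2 in opposite directions. The latter, named here after their values were seen, were chr11:54999661, where 8ND was the lowest group (51.2% in 8ND, 74.0% in 0P, 67.6% in 8P and 85.5% in 0ND), and chrX:162948138, where 0P was the lowest (13.2% in 0P, 28.0% in 8ND, 28.1% in 8P and 20.9% in 0ND). At the 175 lower sites the mean was 61.7% ± 1.54 in 0ND and 46.5% ± 3.43 in 8P (SD, n = 6 and 7), beside the 60.6% of 8ND and 38.3% of 0P that chose them. At the 32 higher sites it was 31.3% ± 2.98 in 0ND and 39.2% ± 1.80 in 8P (SD, n = 6 and 7), beside 27.2% in 8ND and 46.2% in 0P. Both pairs come from the same 12 mice.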

How the data were processed

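DREAM reads were mapped by the authors, whose processing notes name Bowtie2, SAMtools and mm9, while the methods name the human genome. For 173449 sites and 18 spiked standards the authors deposited counts of methylated, unmethylated and total reads, the raw methylation percent and a percent adjusted with the standards. The later genome build used here cannot stand in for mm9: 572 of 4490 chromosome 19 positions held CCCGGG in it.

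From the deposited adjusted percent, every site that reached 20 reads in each of the 12 libraries was tested with scipy 1.17.1 (Python 3.11.15, pandas 2.3.3, numpy 2.4.6). Intervals, moderated tests and the mouse block were fitted with limma 3.58.1 in R 4.3.3. The exact permutation tests of library means were two-sided and ran over 924 assignments of 6 and 6. Wilson intervals and read minimums cover counting error only, and p-values measure the spread between these mice. The calls between 8P and 0ND are an exception, since both lesions of mouse 1856 entered as separate libraries. With these lesions averaged, 734 sites were called between 8P and 0ND and 5 of them matched, against 723 and 6. The scripts were tested on simulated data. Figures were drawn with matplotlib 3.10.9.

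The groups, site lists and tests were chosen with earlier results of these data known. The named sites were called on both scales with no overlap, ranked by size (up to 8 lower and 4 higher, a second site within 1000 bases being added), and the matched sites and the 5 regions followed like rankings. Sites on chromosomes 18 and Y and unplaced sequences were not named. Alternatives were coverage of 10 and 50 reads, raw percent, centred libraries, limma, exact and quasi-binomial tests per site, a replicate block, each library left out, libraries with under 8% of reads on their 100 most-read sites, margins, class limits and windows. A further alternative averaged both lesions of mouse 1856. Counting 1 site per run was chosen after seeing the data.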

Additional observations from a re-analysis of the deposited data

Results flagged for a closer look

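Each group of 6 libraries was searched for a value far from the other 5 (Dixon's test at the 95% level) in library measures, in means over site classes and site lists, and at the named sites. Of 63 sets of values 10 held such a library, where chance gives about 3, and the sets are not independent. The 8ND library of mouse 1856 accounted for 5 of them. It covered 48630 sites with at least 20 reads (the next 21585), had a mean of 29.4% at the 145 sites called higher in 8P than in 0ND (the next 21.7%), and read 91.3% at chr15:25441411 (the others 100%), 14.5% at chr8:9770582 (the next 2.57%) and 4.21% at chr1:91351750 (the others at most 1.6%). The adjustment factor was 1.21 in the 0P library of mouse 1820 (the next 1.04) and 1.97 in the 8ND library of mouse 1841 (the next 1.37). The 0P library of mouse 1808 had 50.3% at chr7:105335197 (the next 18.4%) and 85.2% at chr15:25441411 (the next 94.5%), and that of mouse 1805 had 93.9% at chr2:167208486 (the next 79.3%).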

How the results depend on the processing

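The share of sites called between 0P and 8ND (2.48%) was 0% after Benjamini-Hochberg adjustment, 1.64% in libraries with under 8% of reads on their 100 most-read sites, and 4.97% when all 25 second-cohort libraries shared 1 estimate of the spread, both with mouse as a replicate block and without it. Mouse numbers do not pair 0P with 8ND, which come from different mice, so the block result rests on the mirror groups. The share of calls that were lower (84.3%) was 62.2% on the raw scale, 78.1% with centred libraries, 78.5% in the libraries with the lower read share and 77.3% in both fits of 25 libraries. Leaving out 1 library gave 1.94% to 3.01% called and 71.2% to 87.6% lower.

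The mean difference kept its sign and stayed short of the threshold under coverage of 10 or 50 reads, on the raw scale and without the 3 libraries with the higher read share. It was 0 for medians over sites and turned to 0.336 for pooled raw counts. It ranged from -0.988 to -0.573 without 1 library and passed without the 0P library of mouse 1808 or of mouse 1839. At methylated sites the raw difference of -3.63 missed the threshold, and with class limits of 10% and 90% that of -4.25 at intermediate sites passed it (exact permutation p = 0.0411).

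The matched share (68.4%) was 65.6% at 10 reads, 77.1% at 50, 70.0% with the block, 74.95% with a margin of 10 points and 66.5% to 68.8% without 1 library. Among sites called between 8P and 0ND it was 0.380% on the raw scale, 1.84% with centred libraries, 4.70% with a margin of 10 points and 0.150% to 0.968% without 1 library. The same-sign share (90.3%) was 82.4% at 50 reads, 85.0% on the raw scale and 84.6% to 92.7% without 1 library.

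By density, a window of 100 bases gave 3.09%, 0.773% and 0.299% called with 0, 1 and 2 or more neighbors, and a window of 1000 bases gave 1.10% with 2 or more. Of the 9 neighbors within 100 bases of a called site 0% were called. The raw difference at 3 matched sites changed sign, to 0.603 at chr8:9770582, 0.903 at chr4:139038390 and 0.0867 at chr9:69333063. The other 35 alternatives for the comparisons left the value within 1.5 times (counts), within its 95% interval (shares) or on the same side of the threshold (tests), and 59 for named sites did the latter. At chr1:91351750 the difference of -1.15 points passed with the replicate block (limma, unadjusted p = 0.0348).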
